A study of Mus musculus with 31 samples.

Results

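Livers of mouse pups that lacked a thyroid and received both thyroid hormones, T3 and T4, were compared with livers of athyroid pups that received vehicle. The members were chosen by their genotype and treatment labels, which gave 12 of the 31 liver samples of the study. The first group held 7 livers of Dio1KO/Dio2KO/Pax8KO pups injected with T4+T3 (called T3+T4), and the other held 5 livers of Dio1KO/Dio2KO/Pax8KO pups injected with vehicle (called vehicle). All pups were C57Bl/6J. Injections began on postnatal day 2 and were given every other day, and livers were taken at postnatal day 14. Each sample was 1 animal by its number. The doses are not given in the sources used here, and neither is the purpose of combining the hormones. For comparison, values are also given for Dio1KO/Dio2KO/Pax8KO pups given T3 (6 livers) or T4 (8 livers), and for Dio1KO/Dio2KO/Pax8Het pups given vehicle (5 livers, called control). Type 1 and type 2 deiodinase were therefore deleted in every group, controls included, and Pax8 was heterozygous in the controls.

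Thyroid hormone acts through nuclear receptors that bind DNA as partners of the retinoid X receptor and switch between repression and activation of nearby genes when T3 occupies them. T4 is the main product of the thyroid and is converted to T3 by type 1 and type 2 deiodinase, the enzymes missing here, while type 3 deiodinase inactivates both hormones. Pax8 is a transcription factor required to form the follicular cells of the thyroid. In liver, thyroid hormone is known for raising lipogenic enzymes, cholesterol turnover, its own deiodinase Dio1 and the response to growth hormone.

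The values are read counts per gene. Library totals ran from 5531724 to 7158919 counts in the T3+T4 livers and from 4901954 to 5625282 in the vehicle livers. They averaged 6353684 ± 534439 in T3+T4 and 5297107 ± 301534 in vehicle (SD, n = 7 and 5), and the difference was larger than the spread by a two-sided exact permutation test (p = 0.00758, adjusted p = 0.0455 over 12 library measures, smallest p possible 0.00253). Levels below are CPM, read counts normalised to library size with TMM factors (trimmed mean of M-values). No deposited count was below 1, so about 0.2 CPM is the lowest level that a gene can take. Whether 1 was added to every count or zeros were set to 1 is not given in the sources used here. Of the libraries, 3 T3+T4 and 2 vehicle livers held raised pancreatic acinar transcripts, and 2 T3+T4 livers and 0 vehicle livers held raised skeletal muscle transcripts (mean of at least 5 CPM over the markers). The sex given in the labels differed from the sex-linked genes in 1 T3+T4 and 1 vehicle liver. Animal numbers of all 7 T3+T4 pups lay between 54 and 85, against 2 of the 5 vehicle pups. In whole liver, fewer cells of a type and less RNA per cell cannot be told apart.

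Pax8 RNA in liver did not distinguish the genotypes, with 2 to 20 counts in T3+T4, 4 to 16 in vehicle and 5 to 7 in controls that carried 1 intact copy. Dio2 RNA was likewise at 12 to 26 counts in T3+T4, 4 to 26 in vehicle and 12 to 22 in controls. Dio1 gave many reads in these Dio1KO livers, from 690 to 1504 counts in T3+T4 and from 42 to 91 in vehicle. The removed part of each gene is not given in the labels, and reads from a remaining part are counted, so these counts do not check the deletions.

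Of 17057 genes tested with edgeR's quasi-likelihood test, 2692 (15.8%) differed between T3+T4 and vehicle at a Benjamini-Hochberg adjusted p under 0.05. Of these, 1251 were higher (7.33% of genes tested) and 1441 were lower (8.45%) after T3+T4. Most changes were small: 323 genes rose and 222 fell by more than 2-fold, and 88 rose and 41 fell by more than 4-fold. Scaling by library total alone turned the split to 1670 higher and 1105 lower. The groups' libraries did not overlap for 1365 genes (8%), of which 603 were higher (3.54%) and 762 lower (4.47%) in T3+T4. The T3+T4 pups were numbered 72 to 85 and no vehicle number lay in that range; among animals 54 to 85, which add vehicle pups 55 and 67, 408 genes were higher and 386 lower.

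The largest changes were taken among called genes without overlap and with a mean of at least 5 CPM, leaving out clone and pseudogene symbols. The 12 largest rises by this rule were Slc6a11, A1bg, Lipg, Ces4a, Serpina9, Sult5a1, Thrsp, Col4a3, Csrp3, Ntrk2, Crybb3 and Dio1. They encode a transporter of the neurotransmitter GABA (Slc6a11), endothelial lipase (Lipg), a carboxylesterase (Ces4a), a serine protease inhibitor (Serpina9), a sulfotransferase (Sult5a1), the lipogenic nuclear protein Spot14 (Thrsp), a basement membrane collagen chain (Col4a3), a muscle LIM protein (Csrp3), the neurotrophin receptor TrkB (Ntrk2) and a lens crystallin (Crybb3). Promoters of the first 4 with an entry in the RefSeq table (build GRCm38.p6) are shown because these genes were near silent in vehicle livers. Each is the 250 bases before the RefSeq start, 5′ to 3′ on the gene's strand, and capitals mark AGGTCA or, on the other strand, TGACCT, the half-site that thyroid hormone receptors and several other nuclear receptors bind. The regions are chr6:114130991-114131240 on the plus strand for Slc6a11, chr15:60921271-60921520 on the minus strand for A1bg, chr8:105131550-105131799 on the plus strand for Ces4a and chr8:123158281-123158530 on the minus strand for Sult5a1.
Slc6a11: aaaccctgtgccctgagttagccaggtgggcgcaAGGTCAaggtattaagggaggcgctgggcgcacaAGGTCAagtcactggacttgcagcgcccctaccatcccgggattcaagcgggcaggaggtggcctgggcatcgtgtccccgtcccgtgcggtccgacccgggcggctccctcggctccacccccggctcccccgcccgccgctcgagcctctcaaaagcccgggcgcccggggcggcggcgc
A1bg: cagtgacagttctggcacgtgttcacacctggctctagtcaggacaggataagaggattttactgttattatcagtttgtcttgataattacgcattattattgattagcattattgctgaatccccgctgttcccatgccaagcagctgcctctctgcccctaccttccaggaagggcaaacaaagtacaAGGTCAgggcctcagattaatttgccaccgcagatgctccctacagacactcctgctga
Ces4a: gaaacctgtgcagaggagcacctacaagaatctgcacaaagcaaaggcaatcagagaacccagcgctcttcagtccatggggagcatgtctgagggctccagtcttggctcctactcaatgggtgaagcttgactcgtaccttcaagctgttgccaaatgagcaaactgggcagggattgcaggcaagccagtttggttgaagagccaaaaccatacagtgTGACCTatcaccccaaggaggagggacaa
Sult5a1: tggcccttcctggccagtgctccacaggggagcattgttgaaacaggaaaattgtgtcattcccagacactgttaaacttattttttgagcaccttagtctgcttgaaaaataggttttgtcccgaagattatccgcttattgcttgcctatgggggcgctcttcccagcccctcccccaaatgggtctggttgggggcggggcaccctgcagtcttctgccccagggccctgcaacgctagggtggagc
The Slc6a11 window held 2 half-sites, starting 216 and 182 bases before the start, and the A1bg window held 1, starting 59 bases before it. In the GENCODE M21 annotation A1bg spans chr15:60896859-60923012, so its window lies inside the gene as annotated there. Sult5a1 spans chr8:123140192-123158315 in that annotation, so its window overlaps the first bases of the gene. The Ces4a window held 1, on the other strand and 29 bases before the start, and the Sult5a1 window held 0. Of the 12 rises, 9 had an entry and 3 of them held the half-site. Of the 12 falls, 9 had an entry and 3 of them held it. Of all 32851 promoters listed there, 4607 (14.0%) held it, and a match describes the letters only.

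Slc6a11 was at 28.3, 8.50, 11, 3.55, 1.5, 17.2 and 14.9 CPM in the T3+T4 livers of animals 72, 77, 78, 79, 80, 84 and 85, against 0.365, 0.202, 0.212, 0.184 and 0.191 CPM in the vehicle livers of animals 37, 38, 55, 67 and 2019. Its deposited counts were 9 to 177 in T3+T4 and 2, 1, 1, 1 and 1 in vehicle (fitted log2 fold change 5.58 ± 0.84, adjusted p = 4.57e-05). A1bg, a plasma glycoprotein, gave 4.31, 4.84, 2.02, 6.09, 10.5, 17.9 and 22.8 CPM in the same T3+T4 livers. Every vehicle liver was at the minimum of 1 for A1bg, against deposited counts of 15 to 124 in T3+T4 (fitted log2 fold change 5.50 ± 1.01, adjusted p = 0.000456). Ces4a had deposited counts of 8 to 126 in T3+T4 and 1 or 2 in vehicle (fitted log2 fold change 4.92 ± 0.76, adjusted p = 6.27e-05). With vehicle at or near the minimum, the sizes of these fitted changes depend on the count added in the fit and on how the minimum arose. These genes were at or near the lowest possible level in vehicle livers and spread widely among the treated livers.

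Thrsp was at 142, 46.5, 9.81, 22.5, 33.0, 70.7 and 139 CPM in T3+T4, against 3.83, 1.62, 4.24, 2.39 and 2.29 CPM in vehicle, in the order of animals given above. The lowest treated liver, of animal 78, was above the highest vehicle liver, and the treated livers differed by more than 10-fold among themselves. The log2 fold change was 4.51 ± 0.83 (SE, adjusted p = 0.000496). Ntrk2 showed a like spread, with 196, 91.7, 28.1, 44.3, 46.7, 81.1 and 178 CPM in T3+T4 and 7.66, 2.42, 8.70, 1.10 and 7.82 CPM in vehicle. Over the 12 rises, T3+T4 animal 85 was among the 3 highest treated livers for 12 genes, animal 84 for 9 and animal 72 for 8, while animal 78 was the lowest for 7. Animal 78 also had the largest library and raised acinar transcripts (25.0 CPM), whose part in its lower values was not tested.

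Dio1 and Csrp3 rose with little spread. Dio1 was at 195, 166, 196, 165, 115, 224 and 245 CPM in T3+T4, against 12.6, 9.90, 19.3, 7.73 and 14.1 CPM in vehicle, a log2 fold change of 3.88 ± 0.33 (adjusted p = 6.77e-09). Csrp3 was at 11.7, 15.1, 15.5, 20, 12.7, 19.8 and 18 CPM in T3+T4, against 0.730, 0.202, 0.849, 1.29 and 1.14 CPM in vehicle (log2 fold change 4.21 ± 0.45, adjusted p = 4.46e-07). Csrp3 is known from striated muscle, and muscle markers were raised in T3+T4 animals 79 and 80. Its levels in those livers, 20 and 12.7 CPM, lay within or next to the range of 11.7 to 19.8 CPM in the other 5 treated livers. The part of muscle tissue in the Csrp3 levels was not tested.

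**Figure D1:**
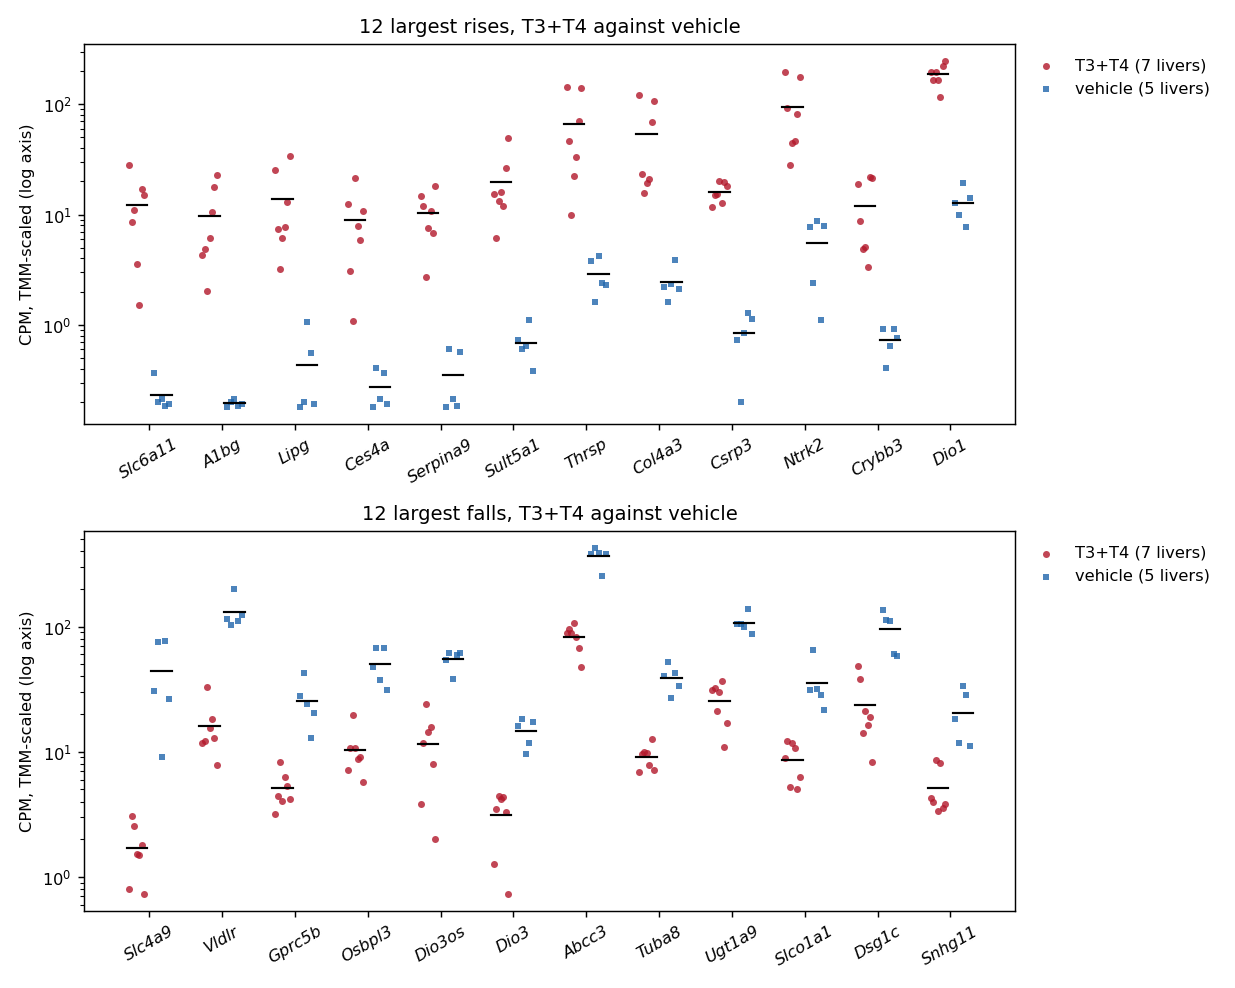
Level of the 12 largest rises (upper panel) and the 12 largest falls (lower panel) in each liver, in CPM on a log axis, with 1 symbol per liver (T3+T4 red circles, vehicle blue squares) and the group mean as a black bar. The 7 T3+T4 livers lie above the 5 vehicle livers for every rise and below them for every fall, as the choice of genes requires, and the treated livers are spread widely for Thrsp and closely for Dio1.

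The 12 largest falls by the same rule were Slc4a9, Vldlr, Gprc5b, Osbpl3, Dio3os, Dio3, Abcc3, Tuba8, Ugt1a9, Slco1a1, Dsg1c and Snhg11. Vldlr, the receptor for very low density lipoprotein, was at 11.7, 12.2, 32.8, 15.6, 18.4, 12.8 and 7.90 CPM in T3+T4, against 115, 102, 198, 110 and 123 CPM in vehicle. The log2 fold change was -3.01 ± 0.37 (adjusted p = 2.70e-06), and T3+T4 animal 78 was again the liver nearest to vehicle. Abcc3, a basolateral exporter of bile salts and conjugates, was at 47.4 to 107 CPM in T3+T4 (median 88.7) and 254 to 420 CPM in vehicle (log2 fold change -2.14 ± 0.24, adjusted p = 7.12e-07). Slc4a9, a member of the bicarbonate transporter family, had the largest fall of these 12. It was at 0.735 to 3.08 CPM in T3+T4 and 9.12 to 77.1 CPM in vehicle (log2 fold change -4.63 ± 0.93, adjusted p = 0.00115). The vehicle livers themselves varied more than 8-fold for Slc4a9. Ugt1a9, a glucuronosyltransferase that conjugates drugs and iodothyronines, was at 10.9 to 36.7 CPM in T3+T4 and 87.4 to 138 CPM in vehicle (log2 fold change -2.06 ± 0.32, adjusted p = 7.43e-05). It shares exons with other Ugt1a genes, and its count is uncertain where reads could be split between them.

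The smallest adjusted p of all belonged to 9030619P08Rik, a transcribed pseudogene that was named after its values were seen. It was at 80.3 to 122 CPM in T3+T4 and 1.21 to 6.15 CPM in vehicle (log2 fold change 4.8 ± 0.29, adjusted p = 2.59e-12), with the reservation that reads of related gene copies could be counted there. Among the next were Nt5e, the ecto-enzyme that makes adenosine, at 181 to 233 CPM in T3+T4 and 72.8 to 93.5 CPM in vehicle (log2 fold change 1.31 ± 0.11, adjusted p = 3.80e-09), and Tlcd2, a membrane lipid protein, at 170 to 240 and 26.9 to 69.8 CPM (log2 fold change 2.24 ± 0.18, adjusted p = 3.80e-09). These genes combined a large change with tight treated livers. Esr1, the estrogen receptor, rose by 1.29 ± 0.13 on the log2 scale (adjusted p = 1.41e-07).

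Of 16 genes listed as induced by thyroid hormone, 7 rose and 1 fell (50% called, against 15.8% of all genes). Their median log2 fold change was 0.59, against -0.0028 over all genes tested. Besides Dio1 and Thrsp, the cytosolic malic enzyme Me1 was at 69.9 to 163 CPM in T3+T4 and 13.8 to 43.6 CPM in vehicle (log2 fold change 2.04 ± 0.37, adjusted p = 0.000456). Gpd2, the mitochondrial glycerol phosphate dehydrogenase, averaged 242 ± 55.5 CPM in T3+T4 and 89.7 ± 61.3 CPM in vehicle (log2 fold change 1.43 ± 0.30, adjusted p = 0.00192). The groups overlapped for Gpd2, since the vehicle liver of animal 67 was at 190 CPM. The transcriptional co-regulator Bcl3 rose by 1.18 ± 0.21 (adjusted p = 0.000325), with 30.4 to 50.0 CPM in T3+T4 and 13.1 to 22.3 CPM in vehicle. Klf9 and Hr, common targets of the hormone receptors in brain and other tissues, did not pass the test: Klf9 had a log2 fold change of 0.40 ± 0.27 (adjusted p = 0.332) and Hr of 0.50 ± 0.38 (adjusted p = 0.402). The member that fell was Pck1, the gluconeogenic enzyme, at -0.31 ± 0.09 (adjusted p = 0.0157). Without the libraries with raised acinar or muscle transcripts, which leaves 3 livers in each group, 3 members rose and 1 fell, and Me1 and Gpd2 lost their calls.

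Of 24 genes of hormone transport, binding, receptors and deiodinases, 7 fell and 3 rose (41.7% called, against 15.8% of all genes). Dio1 was among the rises. Dio3, the inactivating deiodinase, was at 1.28, 3.52, 4.44, 4.23, 4.34, 3.28 and 0.735 CPM in T3+T4, against 16.0, 18.2, 9.55, 11.8 and 17.4 CPM in vehicle (log2 fold change -2.21 ± 0.37, adjusted p = 0.000162). Dio3os, an RNA from the opposite strand of the same locus, fell by 2.24 ± 0.42 (adjusted p = 0.000537). How strand was used in counting is not given in the sources used here, so reads of this pair cannot be told apart. Serpina7, the plasma thyroxine-binding globulin, was at 50.7 to 211 CPM in T3+T4 and 338 to 479 CPM in vehicle (log2 fold change -1.45 ± 0.24, adjusted p = 0.000141). The organic anion transporter Slco1a1 fell by 2.04 ± 0.34 (adjusted p = 0.000155). The receptor gene Thra fell by 0.34 ± 0.07 (adjusted p = 0.000813), whereas Thrb, the main receptor gene of hepatocytes, had a log2 fold change of -0.12 ± 0.12 (adjusted p = 0.534). With log2 library total as a covariate the list held 1 rise and 5 falls.

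**Figure D2:**
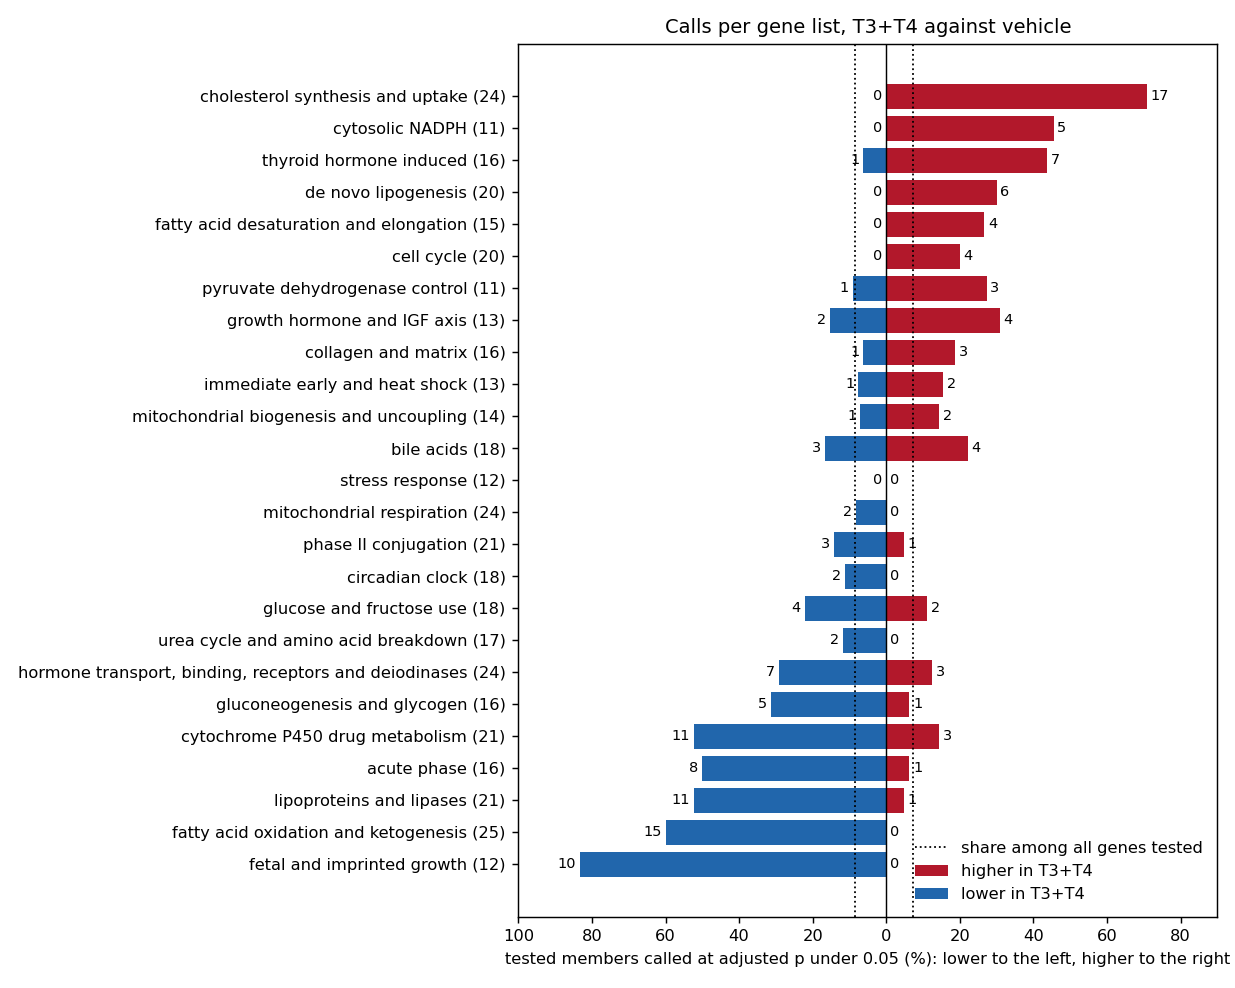
Share of the tested members of each gene list that were lower (blue, left) or higher (red, right) in T3+T4 than in vehicle at an adjusted p under 0.05, in percent, with the number of genes at each bar end and the number tested in brackets. Dotted lines mark the shares among all genes tested, 8.45% lower and 7.33% higher; cholesterol synthesis (17 of 24 higher) and the fetal and imprinted genes (10 of 12 lower) lie farthest from 0.

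Cholesterol synthesis and uptake was the list with the most rises. Of 24 genes, 17 rose and 0 fell (70.8% called, against 15.8% of all genes), with a median log2 fold change of 1.11. These genes are targets of the sterol-sensing factor SREBP2, whose own gene Srebf2 was at 138 to 222 CPM in T3+T4 and 77.2 to 110 CPM in vehicle (log2 fold change 1.01 ± 0.15, adjusted p = 5.43e-05). At the head of the pathway, Hmgcs1 was at 349, 328, 315, 307, 341, 463 and 456 CPM in T3+T4, against 161, 136, 183, 130 and 191 CPM in vehicle (log2 fold change 1.19 ± 0.18, adjusted p = 3.92e-05). Mvk, Pmvk, Mvd, Idi1 and Fdps, the steps from mevalonate to farnesyl diphosphate, rose by 0.60 to 2.97 on the log2 scale.

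Sqle, squalene epoxidase, had the largest change of the pathway, with 72.9, 67.3, 46.0, 24.7, 89.4, 155 and 154 CPM in T3+T4, against 12, 8.68, 8.91, 16.0 and 7.63 CPM in vehicle (log2 fold change 3.02 ± 0.59, adjusted p = 0.000833). Msmo1 and Cyp51, which demethylate sterol intermediates, rose by 2.50 ± 0.37 and 2.25 ± 0.37 (adjusted p = 3.92e-05 and 0.000141). Fdft1, squalene synthase, stood beside these at -0.01 with no call, as did Acat2, Ebp, Hsd17b7, Lss and Insig1 (0.06 to 0.78).

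Among the treated livers, animal 84 was the highest for 12 of the 17 genes and animal 85 for the other 5, while animal 79 was the lowest for 15. Liver 79 was also the one with both raised acinar (12.2 CPM) and raised muscle transcripts (14.6 CPM), and its labelled sex differed from its sex-linked genes; the part of these in its levels was not tested. Without the libraries with raised acinar or muscle transcripts 16 genes of the list rose and 0 fell, and within animals 54 to 85 13 rose and 0 fell.

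**Figure D3:**
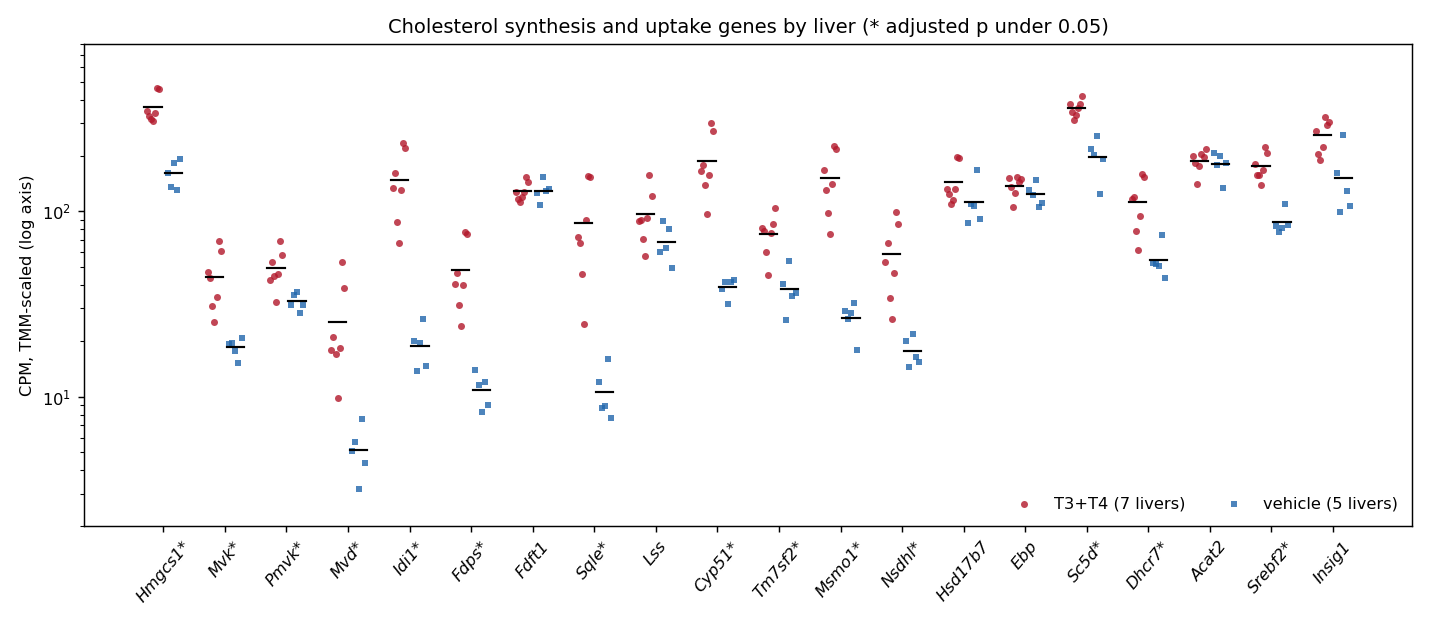
Level of 20 of the 24 genes of the cholesterol synthesis and uptake list in each liver, in CPM on a log axis, ordered by pathway step with regulators last; 1 symbol per liver (T3+T4 red circles, vehicle blue squares), black bars for group means, asterisks for an adjusted p under 0.05. Treated livers lie above vehicle livers for Sqle (24.7 to 155 against 7.63 to 16.0 CPM), while Fdft1 and Acat2 overlap.

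RNA of fatty acid synthesis genes rose in part. Of 20 lipogenic genes 6 rose and 0 fell (30% called, against 15.8% of all genes), with a median log2 fold change of 0.30. Fatty acid synthase, Fasn, was at 276, 196, 183, 189, 210, 323 and 372 CPM in T3+T4, against 95, 59.2, 54.7, 72.0 and 74.2 CPM in vehicle (log2 fold change 1.81 ± 0.20, adjusted p = 5.03e-07). Acaca, acetyl-CoA carboxylase, averaged 159 ± 8.12 CPM in T3+T4 and 108 ± 15.2 CPM in vehicle (log2 fold change 0.56 ± 0.08, adjusted p = 1.40e-05). Mlxipl, the glucose-responsive factor ChREBP, and its target Pklr rose by 0.49 ± 0.11 and 0.54 ± 0.16 (adjusted p = 0.00251 and 0.0206). Srebf1, the lipogenic SREBP gene, had 0.06 ± 0.25 (adjusted p = 0.904), Acly 0.11 ± 0.14 (adjusted p = 0.644) and Scd1 -0.87 ± 0.52 (adjusted p = 0.270). The elongase Elovl3 had deposited counts of 6 to 58 in T3+T4 and 1 or 2 in vehicle (fitted log2 fold change 4.06 ± 0.87, adjusted p = 0.00192, with the same reservation on its size). The fatty acid desaturases Fads1, Fads2 and Fads3 rose by 0.47 ± 0.09, 0.39 ± 0.08 and 1.30 ± 0.21 (adjusted p = 0.000712, 0.00177 and 0.000112). The groups overlapped for Fads1 and Fads2. Both lost their calls within animals 54 to 85 and without the libraries with raised acinar or muscle transcripts, while Fads3 kept its call in every setting.

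Of 11 genes that supply cytosolic NADPH, the reductant of lipid synthesis, 5 rose and 0 fell (45.5% called, against 15.8% of all genes). Apart from Me1 the rises were small: Tkt, transketolase, had a log2 fold change of 0.40 ± 0.07 (adjusted p = 0.000156), and Rpe, Idh1 and Taldo1 had 0.39, 0.31 and 0.27. The call of Idh1 was lost without vehicle animal 38, when 3 genes of the list were called. Without the libraries with raised acinar or muscle transcripts 3 lipogenic genes and 1 NADPH gene rose. Pyruvate dehydrogenase phosphatases, which activate the complex, rose: Pdp2 was at 69.9 to 127 CPM in T3+T4 and 27.4 to 55.1 CPM in vehicle (log2 fold change 1.34 ± 0.18, adjusted p = 1.46e-05), and Pdp1 rose by 0.96 ± 0.26 (adjusted p = 0.0121). Pdp2 kept its call in every setting. Pdp1 lost its call with the library total covariate, within animals 54 to 85 and without the libraries with raised acinar or muscle transcripts. None of the 4 opposing kinase genes Pdk1 to Pdk4 passed the test, with values of -0.27 to 0.20. Of the 11 genes of the list, 3 rose and 1 fell (36.4% called, against 15.8% of all genes).

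Bile acid genes divided. Of 18, 4 rose and 3 fell (38.9% called, against 15.8% of all genes). Cyp7a1, the rate-limiting enzyme of bile acid synthesis, was at 428, 307, 159, 137, 222, 296 and 412 CPM in T3+T4, against 187, 159, 165, 47.3 and 58.8 CPM in vehicle (log2 fold change 1.18 ± 0.37, adjusted p = 0.0259). The groups overlapped, and the call was lost without T3+T4 animal 72 or 85 or vehicle animal 67 or 2019. Without vehicle animal 2019, 2 genes of the list rose, and without the libraries with raised acinar or muscle transcripts 0 rose and 1 fell by edgeR. Cyp7b1 and Cyp27a1 of the alternative pathway rose by 1.33 ± 0.37 and 0.58 ± 0.17 (adjusted p = 0.0139 and 0.0212), and Cyp8b1, which directs synthesis to cholic acid, by 0.42 ± 0.11 (adjusted p = 0.00833). Abcg5 and Abcg8, the paired exporter of cholesterol into bile, fell by 0.52 ± 0.12 and 0.56 ± 0.11 (adjusted p = 0.00334 and 0.000654), as did the nuclear receptor Nr5a2, by 0.52 ± 0.10 (adjusted p = 0.000496).

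In fatty acid oxidation and ketogenesis 15 of 25 genes fell and 0 rose (60% called, against 15.8% of all genes). The median log2 fold change was -0.25. Acadm, medium-chain acyl-CoA dehydrogenase, was at 202, 198, 194, 239, 220, 201 and 192 CPM in T3+T4, against 281, 299, 311, 276 and 281 CPM in vehicle (log2 fold change -0.49 ± 0.07, adjusted p = 1.03e-05). The microsomal omega-hydroxylases Cyp4a10 and Cyp4a14, classical targets of PPARα, fell most, by 1.16 ± 0.26 and 0.88 ± 0.14 (adjusted p = 0.00282 and 6.50e-05). Cpt1a, the carnitine transferase that gates mitochondrial import, and Ppara itself had -0.09 ± 0.09 (adjusted p = 0.545) and 0.01 ± 0.10 (adjusted p = 0.961). Of the 15 falls, 13 were smaller than 0.5 on the log2 scale, and 6 genes of the list fell with log2 library total as a covariate.

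Several lists with many falls held densely covered transcripts, and coverage moved with the calls there. At least 0.5 counts per exonic base were found for 10 of 25 oxidation genes (7 of the 15 falls), 11 of 21 lipoprotein genes (7 of the 11 falls) and 9 of 16 acute phase genes (8 of the 8 falls). Counts levelled off near 2 per exonic base. Of 685 genes with at least 0.5 counts per exonic base, 274 were lower and 24 higher in T3+T4, with a median log2 fold change of -0.18, whereas among 8399 genes with up to 0.05 counts per base 443 were lower and 534 higher (median 0.01). T3+T4 libraries were also larger on average, as given above. With a correction for this ceiling, 1257 genes were higher and 1346 lower, and 14 oxidation genes fell; with log2 library total as a covariate, 849 were higher and 956 lower. The part of coverage in the small falls of abundant genes was not tested beyond these settings.

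**Figure D4:**
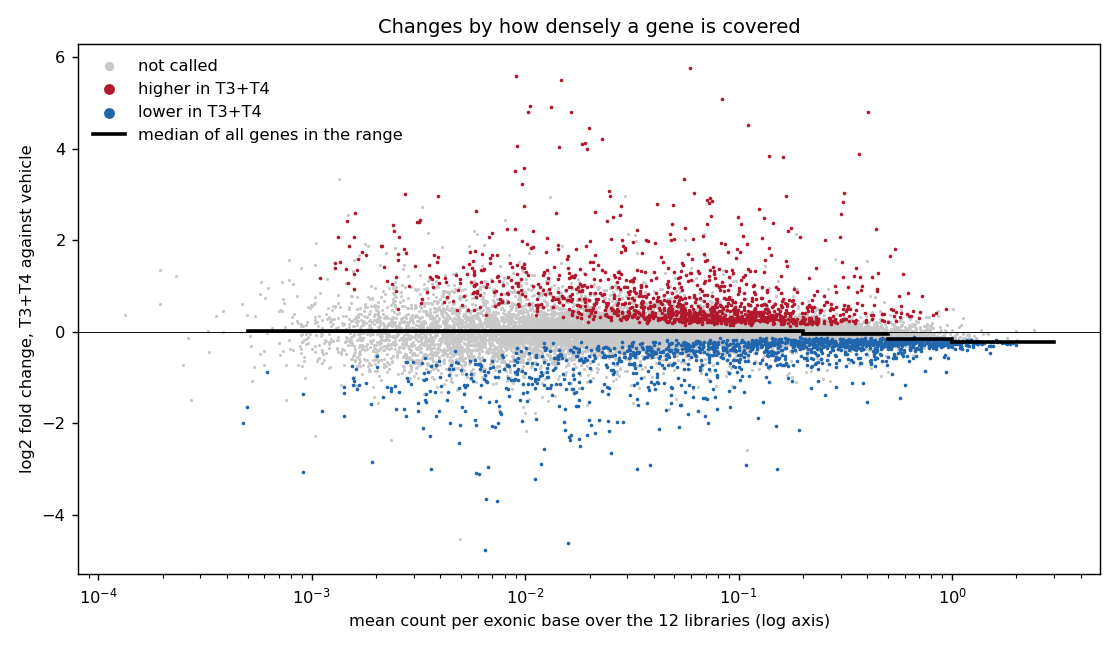
Log2 fold change of T3+T4 against vehicle for each gene tested that has an annotated exonic length, against its mean count per exonic base over the 12 libraries on a log axis; red genes were higher, blue genes lower and grey genes not called, and black lines are medians per coverage range. The median is 0.01 up to 0.05 counts per base and -0.22 above 1 count per base, where 64 genes were lower and 0 higher.

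Lipoprotein and lipase genes showed this pattern: 11 of 21 fell and 1 rose (57.1% called, against 15.8% of all genes). Of the 11 falls, 10 were smaller than 0.5 on the log2 scale. The exceptions at both ends were Vldlr and Lipg, described above. Lipg was at 25.2, 7.33, 3.23, 6.09, 7.68, 13.1 and 33.6 CPM in T3+T4, against 0.182, 0.202, 1.06, 0.552 and 0.191 CPM in vehicle (log2 fold change 4.93 ± 0.72, adjusted p = 3.46e-05). Apoc2, an activator of lipoprotein lipase, was at 82.5 to 92.9 CPM in T3+T4 and 101 to 119 CPM in vehicle (log2 fold change -0.35 ± 0.06, adjusted p = 0.000141). With the library total covariate 3 genes of the list fell and 1 rose. The acute phase list held 8 falls among 16 genes, all under 0.5 in size, and 1 rise (56.2% called, against 15.8% of all genes). Itih3, Fgb, Fgg and Serpina3n had values of -0.33 to -0.26. The rise was Saa2, a serum amyloid gene nearly identical to Saa1, at 1.86 to 59.7 CPM in T3+T4 and 1.21 to 7 CPM in vehicle (log2 fold change 2.75 ± 0.92, adjusted p = 0.0396), with the groups overlapping. With the library total covariate 1 acute phase gene fell and 2 rose.

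Of 16 genes of gluconeogenesis and glycogen 5 fell and 1 rose (37.5% called, against 15.8% of all genes), and 4 of the 5 falls were of genes with at least 0.5 counts per exonic base. Gys2, liver glycogen synthase, fell by 0.63 ± 0.15 (adjusted p = 0.00418), Pcx, pyruvate carboxylase, by 0.40 ± 0.06 (adjusted p = 6.24e-05), and the glycogen branching enzyme Gbe1 rose by 0.55 ± 0.13 (adjusted p = 0.00394). The call of Gys2 was lost without the libraries with raised acinar or muscle transcripts, and that of Gbe1 within animals 54 to 85. G6pc, glucose 6-phosphatase, had -0.08 ± 0.13 (adjusted p = 0.715). Of 18 genes of glucose and fructose use 4 fell and 2 rose (33.3% called); the glucose transporter Slc2a2 and the glucokinase regulator Gckr fell by 0.31 ± 0.08 and 0.39 ± 0.08 (adjusted p = 0.00953 and 0.00195). Both lost their calls with the library total covariate (adjusted p = 0.171 and 0.061), under which 1 gene of this list fell and 0 rose by edgeR.

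Of 13 genes of the growth hormone and IGF axis 4 rose and 2 fell (46.2% called, against 15.8% of all genes). Stat5a, among the factors that carry the growth hormone signal, was at 87.8, 79.9, 96.0, 73.6, 60.4, 82.6 and 85.1 CPM in T3+T4, against 38.3, 31.1, 31.4, 40.3 and 36.1 CPM in vehicle (log2 fold change 1.19 ± 0.14, adjusted p = 1.03e-06). Igfals, which stabilises circulating IGF1, was at 165 to 304 CPM in T3+T4 and 55.7 to 148 CPM in vehicle (log2 fold change 1.21 ± 0.35, adjusted p = 0.0183). The prolactin receptor Prlr rose by 0.93 ± 0.21 (adjusted p = 0.00323). Igf1 itself averaged 1114 ± 143 CPM in T3+T4 and 757 ± 171 CPM in vehicle (log2 fold change 0.56 ± 0.18, adjusted p = 0.0323), a call that was lost without T3+T4 animal 72, 80 or 85 or vehicle animal 38 or 67. The growth hormone receptor Ghr had 0.14 ± 0.15 (adjusted p = 0.550). The binding proteins Igfbp1 and Igfbp2 fell by 0.47 ± 0.09 and 0.56 ± 0.09 (adjusted p = 0.00072 and 5.79e-05). Without vehicle animal 38 or 67, 2 genes of the axis rose and 2 fell, and within animals 54 to 85, or without raised acinar or muscle transcripts, 1 rose and 2 fell.

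Of 12 fetal and imprinted growth genes tested, 10 fell and 0 rose (83.3% called, against 15.8% of all genes). The median log2 fold change was -0.72. Afp, the fetal counterpart of albumin, was at 134, 211, 232, 90.6, 152, 90.8 and 157 CPM in T3+T4, against 326, 334, 283, 348 and 362 CPM in vehicle (log2 fold change -1.12 ± 0.23, adjusted p = 0.00139). Meg3, an imprinted noncoding RNA, was at 18.8 to 49.4 CPM in T3+T4 and 79.4 to 104 CPM in vehicle (log2 fold change -1.62 ± 0.28, adjusted p = 0.000215). Igf2, the fetal growth factor, averaged 558 ± 171 CPM in T3+T4 and 1014 ± 116 CPM in vehicle (log2 fold change -0.86 ± 0.25, adjusted p = 0.018), and its imprinted neighbour H19 fell by 0.39 ± 0.10 (adjusted p = 0.00856). Igf2 and H19 are densely covered, at 0.745 and 1.17 counts per exonic base. With the library total covariate both lost their calls, Igf2 at -0.76 (adjusted p = 0.120) and H19 at -0.14 (adjusted p = 0.383), and both also did within animals 54 to 85 and without raised acinar or muscle transcripts. Dlk1, from the same imprinted cluster as Meg3, fell by 0.99 ± 0.34 (adjusted p = 0.043), but this call was lost when any of T3+T4 animals 72, 77, 84 and 85 or vehicle animals 37, 38, 67 and 2019 was left out. With only the 3 livers of each group that lacked raised acinar and muscle transcripts, 2 genes of the list fell.

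Of 21 genes of cytochrome P450 drug metabolism 11 fell and 3 rose (66.7% called, against 15.8% of all genes). Cyp2c38 was at 0.334 to 1.60 CPM in T3+T4 and 3.13 to 16.6 CPM in vehicle (log2 fold change -3.70 ± 0.53, adjusted p = 2.69e-05), and Cyp2d9 fell by 1.13 ± 0.17 (adjusted p = 4.51e-05). Nr1i3, the xenobiotic receptor CAR, fell by 0.51 ± 0.12 (adjusted p = 0.00458). Its classical target Cyp2b10 fell by 2.89 ± 0.99 (adjusted p = 0.0452), but one vehicle liver, of animal 55, was at 42.0 CPM and the other 4 were at 1.21 to 2.76 CPM, against 0.149 to 4.57 CPM in T3+T4. In the opposite direction, Cyp3a44 was at 101, 133, 172, 95.5, 132, 169 and 216 CPM in T3+T4, against 17.3, 17.4, 21.0, 44.9 and 20.8 CPM in vehicle (log2 fold change 2.58 ± 0.29, adjusted p = 7.93e-07). Cyp3a41a rose by 2.37 ± 0.48 (adjusted p = 0.0012). These 2 genes are near copies of each other, and reads could be split between them. Cyp3a44 kept its call in every setting. Cyp3a41a lost its call within animals 54 to 85 and without the libraries with raised acinar or muscle transcripts. Cyp2f2, a periportal P450, rose by 1.53 ± 0.42 (adjusted p = 0.0135). With the library total covariate 4 of the 21 fell and 3 rose. Among 21 conjugating enzymes 3 fell and 1 rose (19% called, against 15.8% of all genes). The falls were Ugt1a9, Gstp1 (-0.75 ± 0.13, adjusted p = 0.000273) and Gstm1 (-0.50 ± 0.12, adjusted p = 0.00428), and Sult5a1 rose by 4.79 ± 0.66 (adjusted p = 1.51e-05). Gstp1 and Gstm1 lost their calls within animals 54 to 85. Gstm1 also lost its call with the library total covariate and without the libraries with raised acinar or muscle transcripts.

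Cell cycle genes leaned upwards, with a called share of 20% beside 15.8% of all genes tested. All 20 had a positive log2 fold change and the median was 0.74, but 4 passed the test: the cyclin genes Ccnd1 (0.70 ± 0.19, adjusted p = 0.0138) and Ccne2 (0.77 ± 0.27, adjusted p = 0.0469), the replication factor Mcm5 (0.98 ± 0.31, adjusted p = 0.0308) and the centromere histone Cenpa (0.69 ± 0.23, adjusted p = 0.0362). Only 1 gene of the list was called without vehicle animal 38 or 67, and 2 without vehicle animal 55 or T3+T4 animal 77, 80, 84 or 85. Within animals 54 to 85, and without the libraries with raised acinar or muscle transcripts, 0 were called by edgeR. The proliferation marker Mki67 averaged 162 ± 52.9 CPM in T3+T4 and 103 ± 49.3 CPM in vehicle (log2 fold change 0.65 ± 0.39, adjusted p = 0.274). Of 24 respiratory chain genes 2 fell and 0 rose, of 17 genes of the urea cycle and amino acid breakdown 2 fell, of 18 clock genes 2 fell (Npas2 and Cry2), and of 12 stress genes 0 were called by edgeR or DESeq2, with 3 at an unadjusted p under 0.05. Npas2 lost its call without vehicle animal 37 or 2019, and its value was 0.17 instead of -1.06 within animals 54 to 85. The called shares of the respiratory, urea cycle and clock lists, 8.33%, 11.8% and 11.1%, lay below the 15.8% of all genes. Of 14 genes of mitochondrial biogenesis and uncoupling 2 rose and 1 fell (21.4% called, against 15.8% of all genes). The uncoupling protein gene Ucp2 rose by 0.54 ± 0.13 (adjusted p = 0.00629). Its call was lost within animals 54 to 85 and without the libraries with raised acinar or muscle transcripts. The chaperone Hsph1 was at 68.0 to 114 CPM in T3+T4 and 28.2 to 53.2 CPM in vehicle (log2 fold change 0.98 ± 0.17, adjusted p = 0.000324). Of 13 immediate early and heat shock genes, 2 rose, Hsph1 among them, and 1 fell (23.1% called, against 15.8% of all genes).

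Among 16 collagen and matrix genes 3 rose and 1 fell (25% called, against 15.8% of all genes). Col4a3 was at 122, 23.3, 15.7, 19.4, 20.9, 69.1 and 106 CPM in T3+T4, against 2.19, 1.62, 2.33, 3.87 and 2.10 CPM in vehicle (log2 fold change 4.45 ± 0.66, adjusted p = 3.84e-05). Col4a4, its neighbour and partner chain, rose by 3.22 ± 0.46 (adjusted p = 2.75e-05) and Col15a1 by 1.89 ± 0.43 (adjusted p = 0.00343). The fibrillar collagens Col1a1, Col1a2 and Col3a1 had 0.28, 0.17 and 0.33 and were not called.

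Markers placed the tissue as liver in all 12 libraries, with summed hepatocyte markers of 5148 to 6721 CPM in T3+T4 and 7293 to 7747 CPM in vehicle. The hepatocyte sum was lower in T3+T4 by an exact permutation test (p = 0.00253, the smallest possible, adjusted p = 0.0303), and 9 of its 10 genes had at least 0.5 counts per exonic base; 7 fell in the fit, against 1 with the library total covariate. The part of coverage in this difference was not tested further. Granulocyte markers summed to 80.3 to 238 CPM in T3+T4 and 108 to 359 CPM in vehicle (p = 0.162, exact permutation test), and 2 of 10 fell (Cxcr2 and Csf3r). Csf3r lost its call without vehicle animal 55, 67 or 2019 or T3+T4 animal 72, 77, 80, 84 or 85. Kupffer cell markers summed to 1159 to 1591 CPM in T3+T4 and 971 to 1482 CPM in vehicle (p = 0.230, exact permutation test), with 1 of 11 higher (Timd4). This call was lost without vehicle animal 37, 38 or 55 or T3+T4 animal 78, 79, 80, 84 or 85. Endothelial markers summed to 959 to 1169 CPM in T3+T4 and 1094 to 1319 CPM in vehicle (exact permutation p = 0.0202, adjusted p = 0.0808), and 2 of 10 fell (Stab1 and Kdr). Both calls were lost without vehicle animal 67, and that of Kdr also without vehicle animal 2019 or T3+T4 animal 72 or 85. The called shares were 70% for hepatocyte, 20% for granulocyte, 9.09% for Kupffer cell and 20% for endothelial markers, against 15.8% of all genes.

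Stellate cell markers held 1 rise (Lum) and 1 fall (Dcn) among 12 (16.7% called, against 15.8% of all genes). Erythroid, lymphocyte and cholangiocyte markers held 0 calls among 10, 11 and 7 tested with edgeR or DESeq2, and 0, 2 and 0 of them had an unadjusted p under 0.05. Muscle markers also held 0 calls among 6 with either tool and 0 at an unadjusted p under 0.05, but all 6 had positive values with a median of 1.99. Acta1, skeletal muscle actin, was at 47.9 and 27.7 CPM in T3+T4 animals 79 and 80, against 0.479 to 3.23 CPM in the other 5 treated livers and 0.404 to 4.24 CPM in vehicle. Among 9 acinar markers Amy2a5 and Cela1 rose (22.2% called, against 15.8% of all genes). Amy2a5, a pancreatic amylase with near-identical copies, was at 66.4, 85.4, 55.6, 93.5, 41.5, 56.5 and 96.8 CPM in T3+T4, against 28.3, 6.87, 1.27, 1.84 and 8.97 CPM in vehicle (log2 fold change 2.88 ± 0.57, adjusted p = 0.00097). Both were called without the libraries in which the other acinar markers were raised.

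T3+T4 was next compared with each hormone alone and with controls, in the same fit. By sex-linked genes, 5 of 7 T3+T4 livers were male, against 6 of 8 T4, 1 of 6 T3 and 1 of 5 control livers. With a sex covariate 1 gene differed from T3 and 2 from control, and the part of sex was not tested further. Against T4, 1469 genes (8.61%) differed, 693 higher (4.06%) and 776 lower (4.55%) in T3+T4. Without T3+T4 animal 72 the number was 947, and without T4 animal 70 it was 972. Without acinar-positive or muscle-positive libraries, which left 3 T3+T4 and 4 T4 livers, it was 44. Markers of other tissues moved with this comparison: acinar transcripts were raised in 3 of 7 T3+T4 and 0 of 8 T4 livers, and muscle transcripts in 2 of 7 T3+T4 and 4 of 8 T4 livers. All 9 acinar markers tested were called higher in T3+T4 than in T4. Acinar transcripts were raised in 0 of 6 T3 and 1 of 5 control livers, and muscle transcripts in 2 of 6 T3 and 0 of 5 control livers. Against T3, 2 genes (0.0117%) differed, both higher in T3+T4, while 2165 had an unadjusted p under 0.05. Against control, 0 genes differed by edgeR, 1226 had an unadjusted p under 0.05 and DESeq2 called 50. The smallest adjusted p against control was that of Dlk1 (log2 fold change 2.37 ± 0.42, adjusted p = 0.0714), which averaged 29.3 ± 10.9 CPM in T3+T4, 33.5 ± 12.5 in T3, 57.6 ± 25.1 in T4, 58.1 ± 15.7 in vehicle and 5.59 ± 3.17 in control. A count of 0 does not show that T3+T4 and control livers were alike.

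The 2 genes above T3 were Aacs and Tkt. Aacs, the cytosolic enzyme that activates acetoacetate for lipid synthesis, was at 35.1, 28.4, 29.2, 20, 24.4, 48.3 and 54.4 CPM in T3+T4 livers, and averaged 34.3 ± 12.7 CPM in T3+T4, 13.4 ± 4.53 in T3, 8.68 ± 1.98 in vehicle and 20.4 ± 2.98 in control (log2 fold change against T3 1.34 ± 0.22, adjusted p = 0.0197). Tkt averaged 110 ± 8.96 CPM in T3+T4, 85.2 ± 7.44 in T3, 83.2 ± 5.38 in vehicle and 105 ± 7.92 in control (log2 fold change against T3 0.37 ± 0.06, adjusted p = 0.0197). This count moved with single livers. It was 110 without T3+T4 animal 78 and 31 without animal 79, but 0 without animal 72, 84 or 85. It was 40, 33, 18 and 34 without T3 animals 60, 62, 65 and 68, and 0 without T3 animal 61. DESeq2 called 155 genes and the fit with log2 library total 91.

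Side by side, the leading members ordered the groups in different ways. Dio1 averaged 187 ± 42.7 CPM in T3+T4, 135 ± 53.2 in T3, 34.3 ± 16.7 in T4, 12.7 ± 4.42 in vehicle and 169 ± 31.8 in control; T3+T4 exceeded T4 (log2 fold change 2.44 ± 0.25, adjusted p = 1.68e-06) and did not pass the test against T3 (adjusted p = 0.450) or control (adjusted p = 0.974). Thrsp averaged 66.2 ± 54.2 CPM in T3+T4, 7.89 ± 7.48 in T3, 7.74 ± 8.04 in T4, 2.88 ± 1.11 in vehicle and 34.3 ± 26.5 in control, with a log2 fold change of 3.05 against T3 that missed the threshold (adjusted p = 0.0557) and of 3.10 ± 0.61 against T4 (adjusted p = 0.00205). Fasn averaged 250 ± 74.9 CPM in T3+T4, 136 ± 24.7 in T3, 108 ± 23.2 in T4, 71.0 ± 15.8 in vehicle and 168 ± 30.9 in control (adjusted p = 0.0502 against T3 and 3.25e-05 against T4). Igf2 averaged 558 ± 171 CPM in T3+T4, 666 ± 309 in T3, 1032 ± 263 in T4, 1014 ± 116 in vehicle and 1045 ± 97.5 in control, so the control livers stood with vehicle and T4 for this gene. The value against control was -0.91 on the log2 scale and missed the threshold (adjusted p = 0.406).

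**Figure D5:**
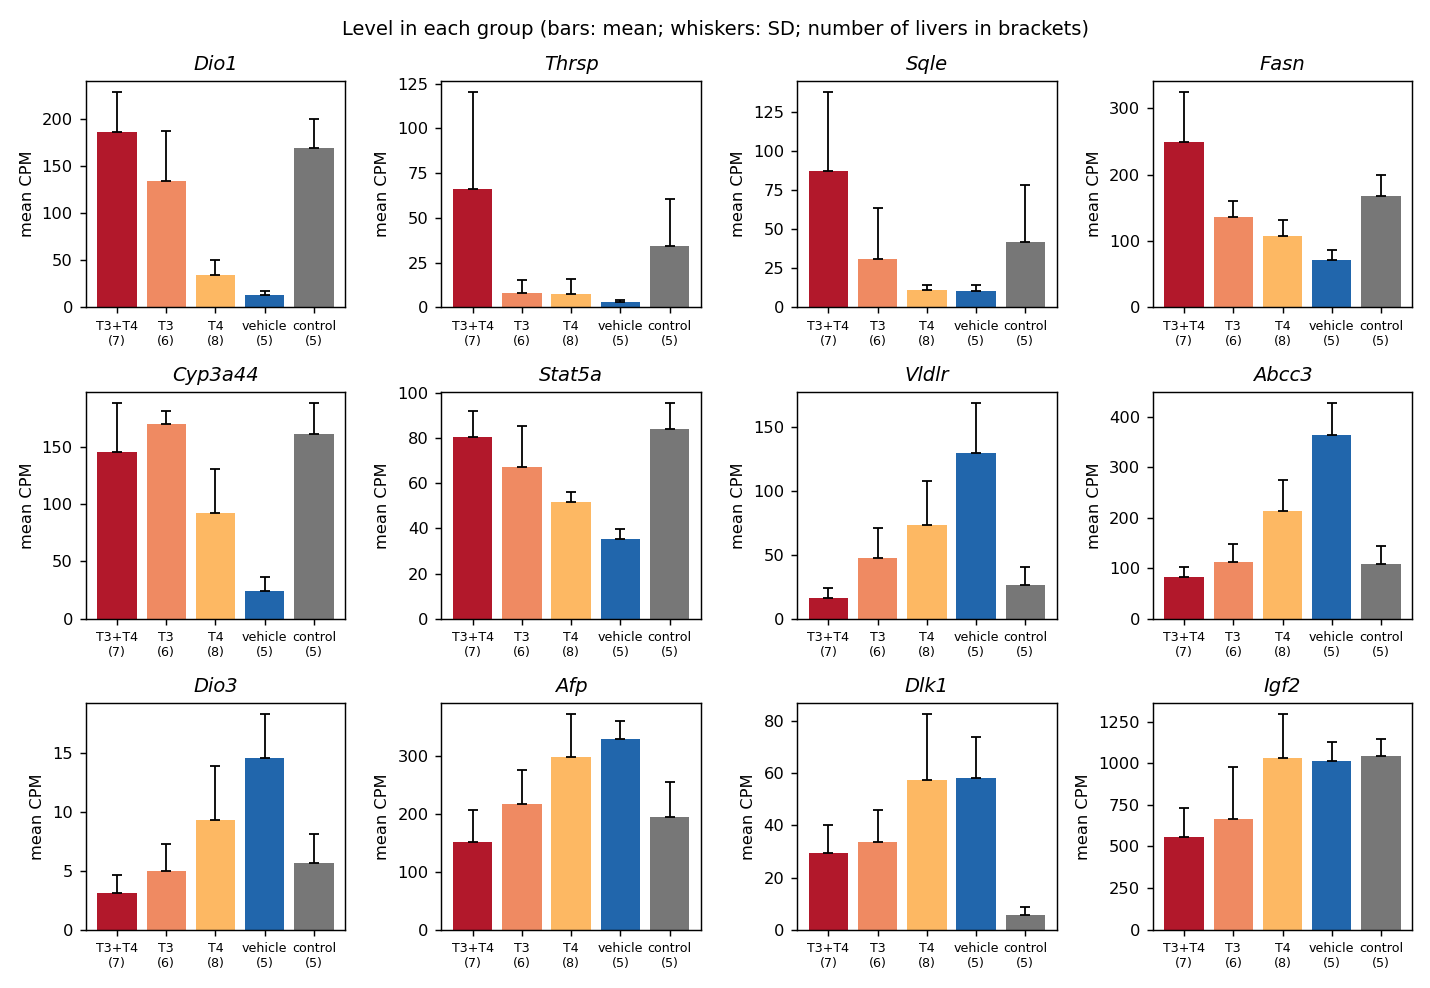
Mean level of 12 genes in T3+T4, T3, T4, vehicle and control livers, in CPM; bars are group means, whiskers 1 SD and numbers in brackets the livers per group, and each gene has its own scale starting at 0. Dio1 is high in T3+T4, T3 and control (187, 135 and 169 CPM) and low in T4 and vehicle (34.3 and 12.7 CPM), while Dlk1 is lowest in control (5.59 CPM).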

How the data were processed

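Liver RNA of 12 pups (7 T3+T4, 5 vehicle) was analysed within the table of all 31 libraries; groups followed the labels. TRIzol RNA went into TruSeq stranded mRNA libraries, per the labels' protocols. The deposited values are counts per gene for 43629 genes, not normalized as far as the values show, with a minimum of 1 in every library (50.1% of values are 1); the step behind this minimum is not given in the sources used here. BWA 0.7.10, Trimmomatic, DESeq and bcl2fastq are named, per the submitters' processing notes, with the build GRCh38, while the column names state mm10; the counting tool and its use of strand are not given in the sources used here. Of the gene IDs, 42548 (97.5%) matched GENCODE M21, which supplied exonic lengths.

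Counts as deposited were filtered with filterByExpr to 17057 genes, scaled by TMM and put through edgeR's quasi-likelihood test (edgeR 4.0.16 in R 4.3.3). The model held a mean for each of the 5 groups and used all 31 libraries; p-values were adjusted by Benjamini-Hochberg over all genes tested, with a threshold of 0.05, and the procedure was tested on simulated data. Alternatives used DESeq2 1.42.0 and the settings named in the closing section. Library totals and marker sums were tested by two-sided exact permutation over livers. Named genes were Pax8, Dio1, Dio2, 18 core genes, the 12 largest rises and falls (adjusted p under 0.05, mean of at least 5 CPM, no overlap, no clone or pseudogene symbols) and up to 4 members of each list with the smallest adjusted p; other genes were named after their values were seen. Members and lists were chosen with earlier results of these data known. That the livers came from separate litters is not given in the sources used here. Some members of the lists are counted in the totals but not reported here by name.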

Additional observations from a re-analysis of the deposited data

Results flagged for a closer look

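Of 268 groups of livers examined for a single sample far from the others (Dixon's test at 95%), 19 had one, and chance alone flags about 1 in 20 groups. T3+T4 animal 78 accounted for 5: it was high for Vldlr (32.8 CPM), Osbpl3 (19.8 CPM), Csf3r (25.1 CPM), the number of genes above 1 count (22980) and the summed cholangiocyte markers (353.9 CPM). Vehicle animal 67 accounted for 4, low for Abcc3 (254.0 CPM) and high for Srebf2 (110.0 CPM), Pdp2 (55.1 CPM) and Cyp3a44 (44.9 CPM). Vehicle animal 37 stood apart for Slc6a11 (0.365 CPM, a deposited count of 2), Serpina3n (479.0 CPM) and Amy2a5 (28.3 CPM), the last being the vehicle liver with the highest mean of acinar transcripts (27.2 CPM). Vehicle animal 55 was high for Vldlr (198.0 CPM), Ier3 (21.2 CPM) and the mean of the muscle markers (1.73 CPM). Vehicle animal 38 was high for Slco1a1 (64.6 CPM) and Dcn (278.0 CPM). T3+T4 animal 85 was high for Fads2 (227.0 CPM) and T3+T4 animal 72 for Cyp2c38 (1.60 CPM). What set these livers apart was not tested.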

How the results depend on the processing

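Higher and lower genes in T3+T4 against vehicle numbered 1251 and 1441. They were 408 and 386 within animals 54 to 85, 309 and 394 without libraries with raised acinar or muscle transcripts (fewer livers in both cases) and 849 and 956 with log2 library total as a covariate; without a filter on low counts 726 were lower and 1806 higher. Leaving out 1 liver gave 874 to 1395 higher and 1005 to 1436 lower. Counts under median-of-ratios factors, library total alone, at least 5 CPM, the compared groups only, DESeq2, a sex covariate, subtraction of 1 from every count and the ceiling correction were within 1.5 times. Against T4 (1469) the counts were 768 with library total as a covariate and 947 to 1738 with 1 liver left out. They were 703 within animals 54 to 85 and 44 without raised acinar or muscle transcripts (fewer livers in both cases). Against T3 (2) they were 13 with no filter, 0 for the compared groups only and within animals 54 to 85, 155 by DESeq2, 1 with a sex covariate and without raised transcripts, 91 with library total, 15 with the ceiling correction and 0 to 110 with 1 liver left out. Against control (0) DESeq2 gave 50, a sex covariate 2 and leaving out 1 liver 0 to 4. The cause of these shifts was not tested. The T3+T4 minus vehicle difference in library total, 1057000 counts, was 922400 to 1194000 with 1 liver left out and 1133000 within animals 54 to 85 (exact permutation p = 0.111). Of 117 named genes called, 56 kept their call and direction under every alternative that tested them (5 of these, A1bg, Ces4a, Cyp2c38, Serpina9 and Slc6a11, were not tested under the filter of at least 5 CPM) and 19 lost it when a single liver was left out; 48 lost it within animals 54 to 85 and 48 without raised transcripts. Npas2 alone changed sign, to 0.17 within animals 54 to 85 (adjusted p = 0.814, against a log2 fold change of -1.06 in all livers). Of the 24 largest rises and falls 20 kept their call under the alternatives that tested them. No paired analysis was possible because the animal numbers are not shared between groups.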
